A study of Mus musculus with 16 samples.

Results

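The genes described here are the 3 TAM receptors (Axl, Mertk and Tyro3), the secreted bridging proteins Gas6, Pros1 and Mfge8, the phosphatidylserine receptor Timd4, and the engulfment genes Elmo1 and Dock2. These 9 of 18580 genes were chosen by name, the RefSeq transcripts of each symbol were summed in all 16 deposited tables, and a transcript that a table did not list was taken as 0. Each table is 1 library of FACS-sorted brain cells. Microglia were sorted as CD45 low/intermediate CD11b+ cells (200000 to 500000 per sample) and macrophages as CD45 high CD11b+ cells (10000 to 30000 per sample), a gate that also takes border-associated macrophages, infiltrated macrophages, neutrophils and NK cells. The donors were WT (C57BL/6N) littermates or CD163KO mice, which carry the allele CD163tm1.1(KOMP)Vlcg, of both sexes and 12 weeks old at surgery. All mice received murine α-synuclein in both striata, either as monomer (MONO) or as pre-formed fibrils (PFF), and the cells were collected 2 months after injection, so no group here was left without injected protein. Each combination of population, sex, genotype and treatment has 1 library. The groups held 7 WT or 5 CD163KO mice (4 for the male CD163KO MONO group), and the sources used here do not say how many of them a library represents or whether a table holds 1 of the triplicates the study sequenced or all of them. The study left its male CD163KO MONO group out for inconsistent technical replicates. Its 2 libraries are therefore shown in the levels and were left out of the tests, which leaves 7 libraries per population.

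Dying cells expose phosphatidylserine on their surface. The TAM receptor tyrosine kinases do not touch it themselves: the vitamin K-dependent proteins GAS6 and protein S (Pros1) bind the lipid at one end and the receptor at the other, and receptor activation both starts engulfment and dampens inflammatory signalling. Gas6 binds all TAM receptors, with the highest affinity for AXL, while protein S acts through MERTK and TYRO3. MERTK is the TAM receptor of resting microglia, and AXL is known as a receptor that rises in inflammation. TIM4 (Timd4) binds phosphatidylserine directly, MFG-E8 links it to integrins, and ELMO1 with its partner DOCK2, the DOCK protein of blood cells, activates the GTPase Rac for cytoskeletal rearrangement.

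Library size ranged from 12170686 to 21433841 estimated counts in macrophages and from 8648751 to 18768238 in microglia. Cd163 read 748 to 5275 counts in the 4 WT and 0 to 1 in the 4 CD163KO macrophage libraries, while the microglia libraries held at most 101 counts and did not separate by genotype. The microglia library labelled female CD163KO MONO held Y-linked counts (421 of Ddx3y), so its sex label is in doubt, and it entered every test in microglia. A total of 4 libraries stood apart within their population. In the microglia of PFF-WT males and MONO-CD163KO males, the 10 most abundant genes took 58.7% and 47.7% of all counts (13.5% to 16.4% in the other 6). In the macrophages of the same 2 groups they took 16.5% each (39.7% to 64.0% in the other 6). Of the sorted cell types, summed FPKM over 12 homeostatic microglia markers was 17736 to 43448 in microglia and 956 to 1877 in macrophages, and over 10 border-associated macrophage markers it was 1913 to 5250 in macrophages and 21.7 to 192 in microglia. The libraries labelled macrophages also held 22114 to 134440 summed FPKM of 12 neutrophil markers (1050 to 2850 in microglia), so their neutrophil signal exceeded that of the macrophage markers in each of the 8 libraries. In such bulk samples, fewer cells of a type and less RNA per cell cannot be told apart.

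Across libraries of a population, the members differed widely in level. FPKM, the read count scaled by transcript length and library size, allows genes to be set side by side. In macrophages the order by median FPKM over 8 libraries was Gas6 (72.1), Pros1 (29.9), Axl (16.4), Mfge8 (10.3), Mertk (6.86), Dock2 (6.68), Timd4 (6.66), Elmo1 (6.06) and Tyro3 (0.005). Gas6 exceeded Pros1, and Pros1 exceeded Axl, in 8 of 8 libraries, but the ranges of neighbours in this order overlapped for every pair except Elmo1 and Tyro3. In microglia the order was Pros1 (169), Mertk (145), Gas6 (68.8), Elmo1 (65.4), Dock2 (37.1), Mfge8 (21.1), Axl (7.11), Timd4 (0.025) and Tyro3 (0), and the ranges of all neighbours overlapped. By median FPKM, the leading TAM ligand and TAM receptor were Gas6 and Axl in macrophages and Pros1 and Mertk in microglia.

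**Figure D1:**
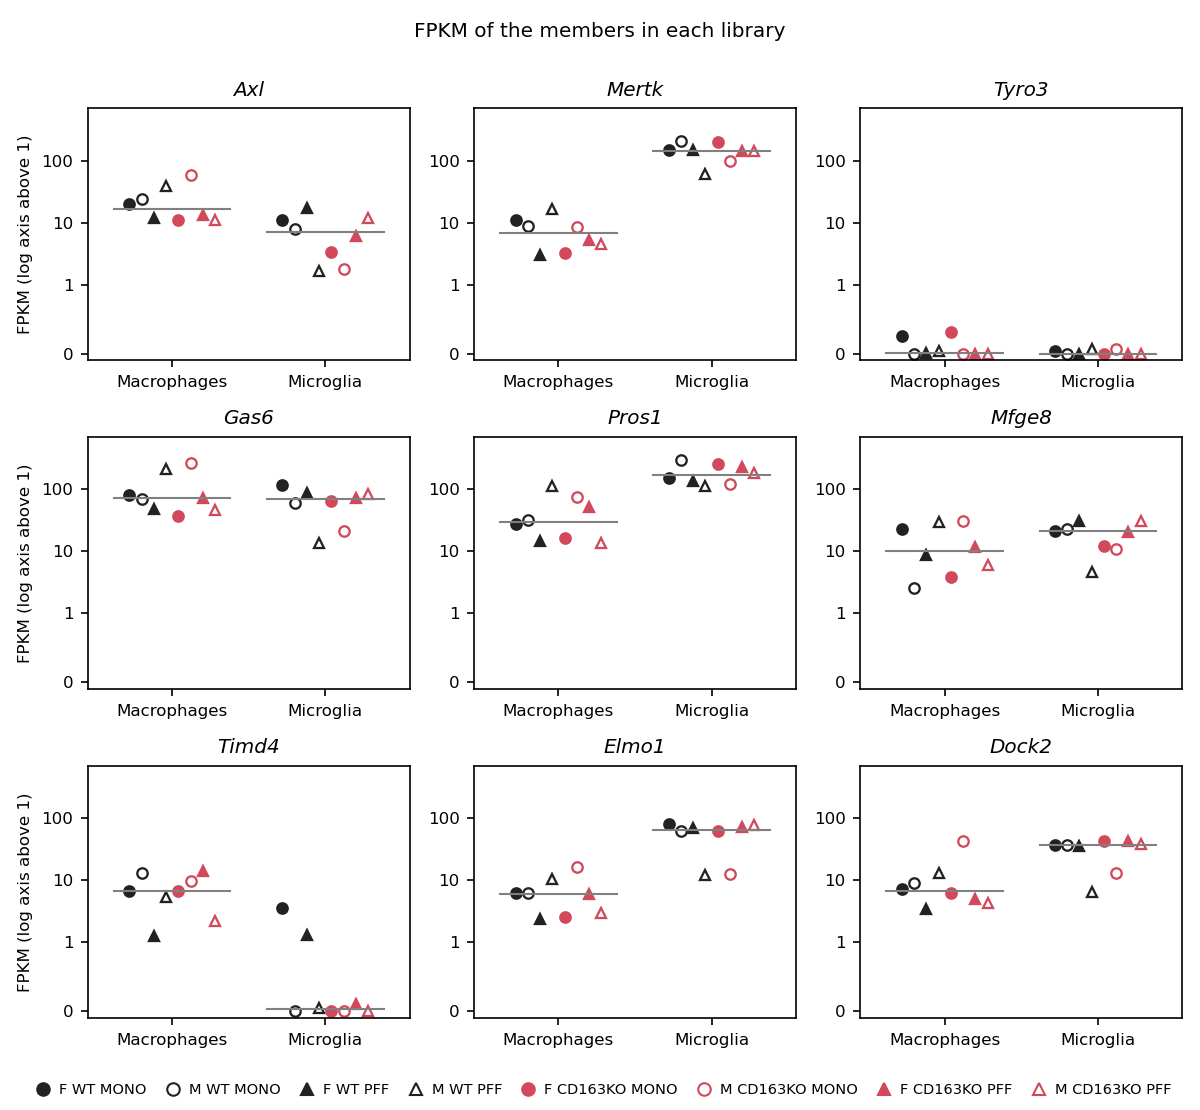
FPKM of each of the 9 genes in the 8 macrophage and 8 microglia libraries (axis logarithmic above 1 and linear below), each point 1 library with its symbol for sex, genotype and treatment, and each line the median. Mertk, at 3.04 to 16.7 FPKM in macrophages and 61.6 to 206 in microglia, separates the populations fully, whereas the points of Gas6 overlap.

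The RefSeq promoters (250 bases before to 50 after the start site that the promoter table uses, GRCm38.p6) of Mertk (gene at chr2:128698915-128803162; promoter chr2:128698665-128698964, plus strand) and Axl (gene at chr7:25756500-25788924; promoter chr7:25788684-25788983, minus strand) are shown because these TAM receptors were expressed in both populations and stood highest in different ones. That start site is the outer edge of the gene for Mertk, and for Axl, as for Tyro3 and Timd4, it lies inside the annotated gene interval. Capitals mark matches to the PU.1 core GAGGAA on either strand (other strand TTCCTC).
Mertk promoter: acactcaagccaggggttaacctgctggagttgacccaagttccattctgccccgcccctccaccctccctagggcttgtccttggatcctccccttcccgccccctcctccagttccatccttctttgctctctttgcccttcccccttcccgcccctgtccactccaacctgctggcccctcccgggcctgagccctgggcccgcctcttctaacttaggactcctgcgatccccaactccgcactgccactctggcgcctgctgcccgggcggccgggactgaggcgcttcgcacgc
Axl promoter: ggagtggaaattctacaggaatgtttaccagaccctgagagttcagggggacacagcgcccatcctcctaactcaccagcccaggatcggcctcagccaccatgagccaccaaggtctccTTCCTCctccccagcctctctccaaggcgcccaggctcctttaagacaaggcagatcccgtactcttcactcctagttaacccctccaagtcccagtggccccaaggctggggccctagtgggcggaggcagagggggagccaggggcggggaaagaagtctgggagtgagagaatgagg
The Axl window held 1 PU.1 core, 130 bases before that start site, and the Mertk window none. A PU.1 core stood in 28.3% of 32851 mouse promoters of this length, and neither window matched AP-1 (TGACTCA, 5.2% of promoters), the TATA box (TATAAA, 13.6%) or the E-box (CACGTG, 7.15%). Of the other members, the first promoter of Elmo1 and that of Dock2 each held 2 PU.1 cores and that of Mfge8 held 1, and none was matched in the windows of Gas6, Pros1, Timd4 and Tyro3. GC content was 66.0% for Mertk and 60.3% for Axl (median 52.7% of all promoters).

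Which of these genes differ between microglia and macrophages was tested in 7 libraries per population, matched for sex, genotype and treatment, with edgeR's quasi-likelihood test over 13644 genes. A gene was called at a Benjamini-Hochberg adjusted p of at most 0.05 and an absolute log2 fold change of at least 1. Of the 9 members, 6 were called, against 17% of all genes tested: Mertk, Elmo1 and Pros1 were higher in microglia (6.25% of all genes), and Axl, Gas6 and Timd4 were lower (10.7% of all genes). The scale of these fold changes depends on the normalization. With TMM factors the median gene was 0.36 (log2) higher in microglia and 36.9% of calls were higher, while with total counts alone the median gene was 1.95 higher and 90.5% of 6320 calls were higher. Fold changes of the called members other than Timd4 are therefore also given relative to the median gene. The 6 calls held when any 1 of the 14 libraries was left out, those that stood apart included, while the number of genes called ranged from 1706 to 4050. The cell markers given above differ between the populations in the same libraries, and their part in the differences was not tested.

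Mertk, the receptor tyrosine kinase through which phagocytes take up apoptotic cells and shed photoreceptor membrane, was higher in microglia. In MONO-injected mice its FPKM in macrophages was 11.0 (WT females), 8.98 (WT males), 3.20 (CD163KO females) and 8.51 (CD163KO males), against 147, 206, 200 and 97.4 in the microglia of the same groups. After PFF it was 3.04, 16.7, 5.20 and 4.47 in macrophages and 149, 61.6, 144 and 141 in microglia. Each microglia library exceeded every macrophage library, and the lowest microglia value came from 1 of the libraries that stood apart. In TMM-scaled CPM, counts scaled to the effective library size, Mertk spanned 24.0 to 69.2 in macrophages (median 43.2) and 312 to 638 in microglia (median 393). The microglia library lowest by FPKM, that of PFF-WT males, was the highest on this scale (638). The fitted difference was 8.66-fold (log2 3.11 ± 0.25, SE; 95% interval 2.57 to 3.66; edgeR's quasi-likelihood adjusted p = 8.45e-06). Relative to the median gene it was 2.76 with TMM and 2.61 with total counts.

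Axl, the TAM receptor of activated macrophages and dendritic cells, stood the other way. Its FPKM in macrophages was 19.7 (WT females), 23.9 (WT males), 10.9 (CD163KO females) and 59.2 (CD163KO males) after MONO, and 12.1, 38.8, 13.2 and 11.0 after PFF. In microglia it was 10.8, 8.02, 3.41 and 1.76 after MONO and 17.0, 1.68, 6.19 and 12.0 after PFF. On the FPKM scale the populations overlapped, with Axl higher in microglia in 2 of 7 matched pairs. On the TMM scale they did not: Axl was 105 to 191 CPM in macrophages (median 135) and 8.22 to 42.6 in microglia (median 19.3), and lower in microglia in 7 of 7 pairs. The fitted level in microglia was 6.42-fold lower (log2 -2.68 ± 0.27; interval -3.27 to -2.09; edgeR's quasi-likelihood adjusted p = 4.3e-05). The call ended with total counts (log2 -1.21, adjusted p = 0.114) and with limma on log2(FPKM + 1) (log2 -1.14, adjusted p = 0.0736), although relative to the median gene Axl was -3.04 with TMM and -3.15 with total counts.

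Tyro3, the TAM receptor of neurons and myelinating cells, was close to absent from both populations. Its highest reading was 15 counts in a macrophage library and 5 counts in a microglia library, and it was at 0 counts in 4 of 8 and 5 of 8 libraries, respectively. Tyro3 passed the count minimum between the populations only through 2 macrophage libraries (14 and 15 counts), which fixes the direction, so no fold change is read from it, and it did not pass within microglia.

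Timd4, the phosphatidylserine receptor of long-lived tissue macrophages, was present in every macrophage library (58 to 544 counts; 1.27 to 13.9 FPKM). In microglia it was at 0 in 4 of 8 libraries, read 2 and 4 counts in the PFF-injected WT males and CD163KO females, and reached 44 and 65 counts only in WT females injected with PFF and MONO. The summed FPKM of border-associated macrophage markers did not follow these counts: it was 113 and 86.5 in the microglia of MONO- and PFF-injected WT females, 192 in MONO-WT males and 105 in MONO-CD163KO females, where Timd4 was at 0, and 21.7 to 48.8 in the other 4 libraries. On the TMM scale the populations did not overlap (8.26 to 47.7 CPM in macrophages, 0 to 3.60 in microglia). Timd4 was called lower in microglia (edgeR's quasi-likelihood adjusted p = 0.00978), with a fitted log2 fold change of -7.07 ± 1.62 that depends on the treatment of counts of 0. In the pairs with a microglia count of 0, taken as 3 counts in that library, the TMM-scaled level was at least 340-fold lower in MONO-CD163KO females, 185-fold in MONO-WT males, 119-fold in PFF-CD163KO males and 64.1-fold in MONO-CD163KO males. By total counts these bounds were 77.7-fold, 81.1-fold, 25.4-fold and 125-fold. In PFF-WT males, with 2 microglia counts, the ratio of macrophages to microglia was 33.9 (exact 95% counting interval 9.26 to 282) with TMM and 106 (29.0 to 883) by total counts. In PFF-CD163KO females, with 4 counts, it was 398 (154 to 1468) and 126 (48.6 to 463). In the WT females the ratio was 5.54 (MONO) and 5.85 (PFF) with TMM. By total counts it was 1.87 (1.41 to 2.52) after MONO and 0.99 (0.66 to 1.5) after PFF, so the PFF pair did not differ beyond counting error on that scale.

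**Figure D2:**
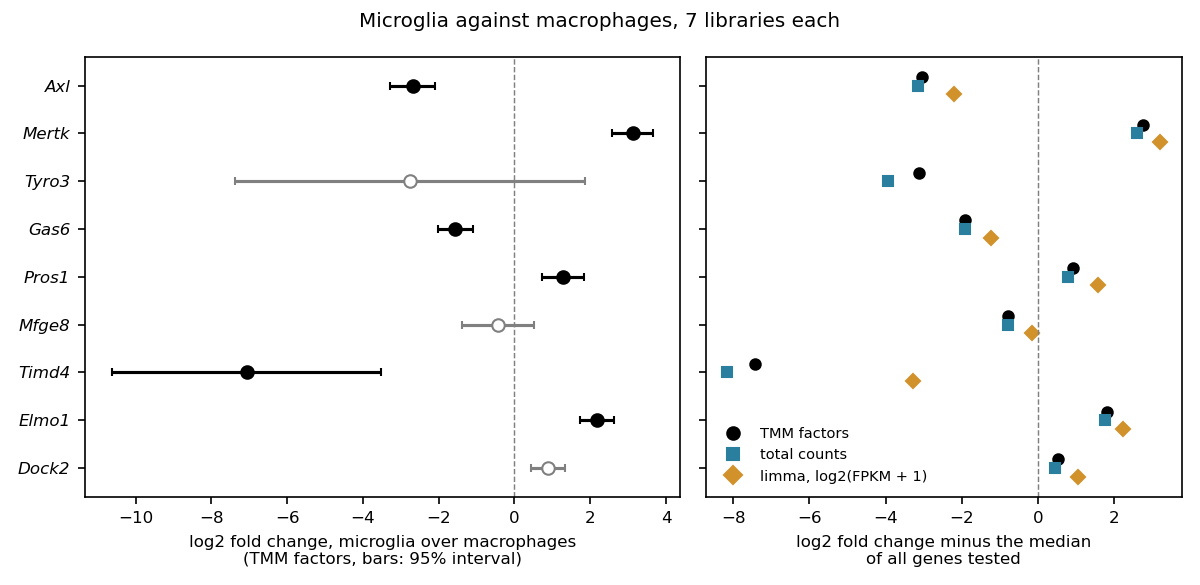
Left, log2 fold change of each member in microglia over macrophages (edgeR with TMM factors, 7 libraries per population) with its 95% interval, filled where called; right, the log2 fold change minus the median of all genes tested, with TMM factors, total counts and limma on log2(FPKM + 1). Relative to that median, Mertk, Elmo1 and Pros1 lie above 0 and Axl, Gas6 and Timd4 below 0 under all 3 methods (Tyro3 is drawn, but its direction is fixed by the count minimum), although the fold change of Gas6 itself moves from -1.56 with TMM to 0.027 with total counts.

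Gas6, the bridging ligand of all TAM receptors (chr8:13465374-13494535), reached the highest median among members in macrophages. Its FPKM there was 81.6 (WT females), 70.7 (WT males), 37.6 (CD163KO females) and 271 (CD163KO males) after MONO, and 48.4, 214, 73.6 and 46.6 after PFF. In microglia the values were 119, 60.02, 64.2 and 21.5 after MONO and 87.0, 13.4, 73.4 and 84.1 after PFF. The 2 highest macrophage and the 2 lowest microglia values belong to the libraries that stood apart, and on the FPKM scale the populations overlapped. On the TMM scale they did not (205 to 442 CPM in macrophages, 68.4 to 146 in microglia), and Gas6 was 2.94-fold lower in microglia (log2 -1.56 ± 0.22; interval -2.03 to -1.09; edgeR's quasi-likelihood adjusted p = 0.000383). This direction held with TMM and not with total counts (log2 0.027, adjusted p = 0.97), and limma on log2(FPKM + 1) gave -0.17 (adjusted p = 0.805). Relative to the median gene Gas6 was -1.92 under either scaling.

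Pros1 encodes protein S, an anticoagulant and the ligand of MERTK and TYRO3 (chr16:62854307-62929346). Its FPKM in microglia was 154 (WT females), 300 (WT males), 253 (CD163KO females) and 123 (CD163KO males) after MONO, and 135, 115, 229 and 183 after PFF. In macrophages it was 27.2, 32.5, 16.7 and 74.1 after MONO, and 14.96, 114, 52.7 and 13.6 after PFF. The highest macrophage value, 113.73 in PFF-WT males, lay just under the lowest microglia value, 114.85 in the same group. On the TMM scale that microglia library was the highest (880). Pros1 was higher in microglia in 7 of 7 pairs, by 2.44-fold (log2 1.28 ± 0.25; interval 0.73 to 1.83; edgeR's quasi-likelihood adjusted p = 0.00377), although its TMM-scaled CPM overlapped (108 to 280 in macrophages, 227 to 880 in microglia). Relative to the median gene it was 0.92 with TMM and 0.79 with total counts, below the fold limit of 1.

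Mfge8, which ties phosphatidylserine to the integrins αvβ3 and αvβ5 through its RGD motif, did not pass the test between populations. It spanned 6.12 to 64.9 CPM (TMM) in macrophages and 12.5 to 33.4 in microglia, with a log2 fold change of -0.44 ± 0.44 (interval -1.39 to 0.52; edgeR's quasi-likelihood adjusted p = 0.523). The macrophage range was the wider, from 2.57 FPKM in MONO-WT males to 30.6 in MONO-CD163KO males.

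Elmo1 and Dock2 form the Rac activation module. Elmo1 was 4.53-fold higher in microglia (log2 2.18 ± 0.20; interval 1.74 to 2.62; edgeR's quasi-likelihood adjusted p = 2.2e-05), with 31.1 to 58.0 CPM (TMM) in macrophages and 88.6 to 221 in microglia. Relative to the median gene it was 1.82 with TMM and 1.75 with total counts. By FPKM it was 2.40 to 16.4 in macrophages and 12.2 to 81.1 in microglia, and the ranges did not overlap without the excluded male CD163KO MONO libraries. Dock2 was 50.9 to 179 CPM in macrophages and 95.9 to 140 in microglia. Its log2 fold change of 0.88 ± 0.20 (interval 0.44 to 1.33; edgeR's quasi-likelihood adjusted p = 0.00948) was below the fold limit, and it was called with total counts (log2 2.41), without the count filter (log2 1.22) and with limma on FPKM (log2 2.10). Relative to the median gene Dock2 was 0.52 with TMM, 0.46 with total counts, 0.31 without the filter and 1.05 with limma. With the excluded libraries added it was log2 0.69 (edgeR's quasi-likelihood adjusted p = 0.0934). The single highest macrophage level of Dock2 was 43.6 FPKM in MONO-CD163KO males, against at most 12.9 in the other 7.

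Ratios of 2 genes in the same library do not depend on the scaling. They were chosen after the levels had been seen and are given as a description. The Mertk to Axl ratio of FPKM was 0.144 to 0.559 in macrophages (median 0.384) and 8.76 to 58.6 in microglia (median 24.5). The Pros1 to Gas6 ratio was 0.273 to 0.716 in macrophages (median 0.388) and 1.29 to 8.56 in microglia (median 3.52). Both ratios separated the 8 macrophage from the 8 microglia libraries, including the 4 that stood apart. The Gas6 to Axl ratio (2.96 to 5.56 and 5.12 to 18.8) and the Elmo1 to Dock2 ratio (0.375 to 1.22 and 0.979 to 2.18) overlapped between the populations.

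**Figure D3:**
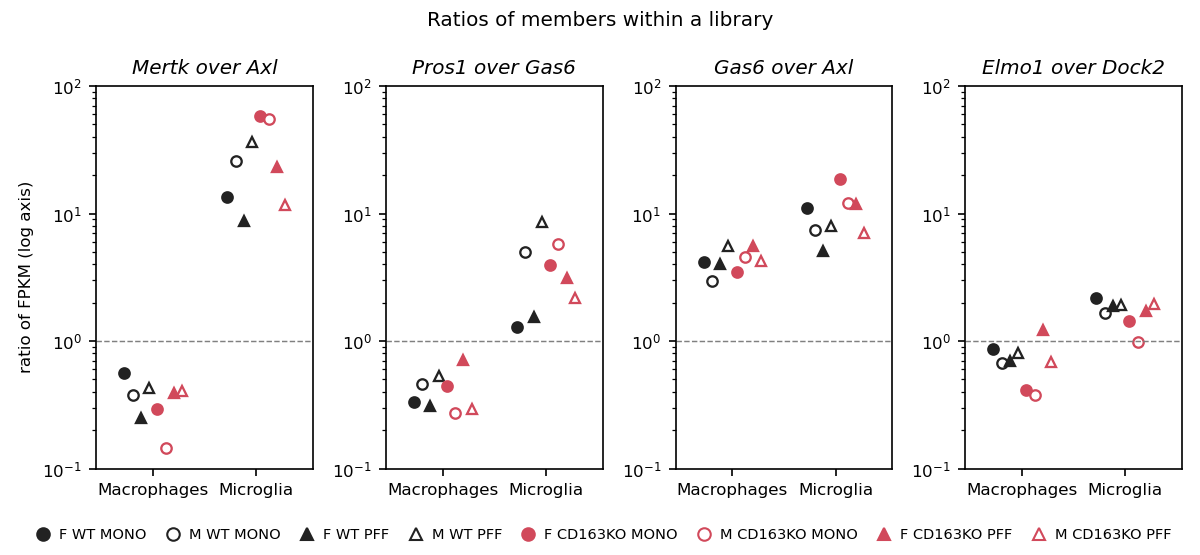
Ratios of FPKM between members within each of the 16 libraries (log axis), by population, each point 1 library. Mertk over Axl lies under 1 in all 8 macrophage libraries (at most 0.559) and above 1 in all 8 microglia libraries (at least 8.76), and Pros1 over Gas6 behaves in the same way.

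Around the members, 6 lists of genes of the same pathway were examined in the population comparison, in which all genes had a median log2 fold change of 0.36. The counts of each list stand against 6.25% of all genes called higher and 10.7% called lower with TMM, and 41.9% higher and 4.38% lower with total counts. Of 9 bridging molecules and opsonins tested, 0 were higher and 4 lower in microglia (median -1.42). These included Anxa1 (log2 -6.50 ± 0.34, adjusted p = 5.54e-07 by edgeR's quasi-likelihood test) and Anxa5 (log2 -3.63 ± 0.21, adjusted p = 8.93e-07), annexins that bind phosphatidylserine, and Lgals3 (log2 -6.27 ± 0.32), a galectin described as a MERTK ligand. With total counts 3 of these genes were higher and 3 lower. Of 15 other uptake receptors, 4 were higher and 4 lower (median -0.46; 5 higher and 3 lower with total counts). Lrp1, the receptor of calreticulin-marked cells, was higher in microglia by log2 2.42 ± 0.28, Itgb5, the integrin chain that binds MFG-E8, by 2.61 ± 0.31 and the lipid receptor Trem2 by 1.66 ± 0.32, whereas the scavenger receptor Cd36 (log2 -5.93 ± 0.56) and the phosphatidylserine receptor Cd300lf (log2 -5.26 ± 0.61) were lower. Stab1, a scavenger receptor of tissue macrophages, was lower with TMM (log2 -1.67 ± 0.21) and not called with total counts (log2 -0.22).

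Of 17 further engulfment genes, 2 were higher and 4 lower in microglia (median -0.19; 8 higher and 4 lower with total counts). The Rac exchange factor Vav1 (log2 1.26 ± 0.21) and Dock10 (log2 1.30 ± 0.33) were higher, and the blood-cell GTPase Rac2 (log2 -2.75 ± 0.28), Vav3 and Dock5 lower. Vav3 had a median of 2.28 FPKM in macrophages and at most 0.14 in microglia, and Dock5 a median of 0.88 and at most 0.36, and no fold change is given for levels this low. Vav3 met the count minimum through macrophages, which fixes its direction, so its call, included in the counts of lower genes, is not read as a difference. Of 6 inhibitory signals, 1 was higher (Sirpa, the receptor of the CD47 "don't eat me" signal, log2 2.12 ± 0.28) and 5 were lower, among them Lilrb4a (log2 -5.40 ± 0.30), Cd24a (3.37 to 70.3 FPKM in macrophages and 0 to 3.25 in microglia) and Pirb (log2 -2.74 ± 0.26, and -1.24 and not called with total counts). With total counts 1 of the 6 was higher and 2 were lower. Of 9 proximal regulators of TAM signalling, 4 were higher and 0 lower (median 0.89; 5 higher and 0 lower with total counts), including Pik3r1, a PI3-kinase subunit (log2 2.04 ± 0.36), Adam10, a protease that sheds AXL (log2 1.52 ± 0.28), and Socs3 (log2 1.16 ± 0.26), an inhibitor of cytokine signalling. Of 12 genes of digestion and lipid sensing, 2 were higher and 2 lower with TMM (median 0.66), whereas 9 were higher and 1 lower with total counts. With TMM the higher genes were Mylip (log2 3.23 ± 0.34) and the cholesterol exporter Abca1 (log2 1.14 ± 0.25). The lower ones were the autophagy gene Becn1 (log2 -1.16 ± 0.22, and 0.29 and not called with total counts) and the lipid-sensing nuclear receptor Pparg. Pparg read 0 to 4.5 FPKM in macrophages and at most 0.04 in microglia. It met the count minimum through macrophages, which fixes its direction, so its call, included in the counts of lower genes, is not read as a difference. Apart from Vav3 and Pparg, whose direction was fixed, all calls named in these sentences had an adjusted p of at most 0.0168 by edgeR's quasi-likelihood test.

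Whether fibrils changed these genes relative to monomer was tested in each population over 7 libraries. No member was called in macrophages (0 of 9, against 0% of 11905 genes) or in microglia (0 of 8 tested, against 0% of 12670 genes). At an unadjusted p under 0.05, edgeR's quasi-likelihood test counted 125 genes in macrophages and 762 in microglia, none of them a member, and DESeq2 called 8 and 25 genes.

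In microglia, Axl had the lowest unadjusted p of the members. Its TMM-scaled CPM after MONO and PFF was 24.8 and 42.6 in WT females, 19.3 and 19.4 in WT males, 8.22 and 15.9 in CD163KO females, and 10.4 and 30.8 in CD163KO males. On this scale the PFF library was the higher in 4 of 4 pairs, with almost no difference in WT males, whose PFF library stood apart. By FPKM, Axl in WT males was 8.02 after MONO and 1.68 after PFF, the reverse order. The fitted log2 fold change was 0.89 ± 0.44 (interval -0.08 to 1.85; edgeR's quasi-likelihood adjusted p = 0.771, unadjusted p = 0.0671). Over total counts it was 0.55 and with limma on log2(FPKM + 1) it was 0.21, where all genes had medians of -0.38 and -0.39 (0.13 with TMM). Without the library labelled female CD163KO MONO, which held Y-linked counts and the lowest Axl level, it was 0.50. Mfge8 stood at 0.64 ± 0.35 (interval -0.14 to 1.41), and Mertk, Gas6, Pros1, Elmo1 and Dock2 lay between -0.05 and 0.13 with 95% intervals reaching at least 0.64 to either side. Without the library labelled female CD163KO MONO, Mfge8 was 0.39, Mertk 0.37 and Pros1 0.53, and without WT PFF males Mertk was -0.33 and Pros1 -0.45. The 7 fits that left out 1 library gave -0.13 to 0.34 for Gas6, -0.02 to 0.25 for Elmo1 and -0.12 to 0.02 for Dock2.

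In macrophages the bridging ligands had the lowest unadjusted p. Gas6 after MONO and PFF was 296 and 378 CPM (TMM) in WT females, 205 and 411 in WT males, 212 and 303 in CD163KO females, and 442 and 288 in CD163KO males. On this scale it was higher after PFF in the 3 pairs tested and lower in the pair with the excluded library. By FPKM it was lower after PFF in WT females (81.6 and 48.4), as was Pros1 (27.2 and 14.96). Its log2 fold change was 0.66 ± 0.31 (interval -0.06 to 1.38; edgeR's quasi-likelihood adjusted p = 1.0, unadjusted p = 0.0671), and 0.26 with the excluded library. Over total counts it was 0.61 and with limma on log2(FPKM + 1) it was 0.42, where all genes had medians of -0.43 and -0.28 (-0.11 with TMM). Pros1 was 127 and 150 in WT females, 121 and 280 in WT males, 120 and 279 in CD163KO females, and 155 and 108 in CD163KO males, a log2 fold change of 0.82 ± 0.44 (interval -0.21 to 1.84). Without the library of PFF-WT males, which stood apart, the log2 fold changes were 0.57 for Gas6 and 0.45 for Pros1, and Pros1 was also 0.45 without PFF-injected CD163KO females. Mfge8 (1.32 ± 0.84) and Timd4 (-1.04 ± 0.88) had wide intervals that include 0, and Axl, Mertk, Elmo1 and Dock2 lay between -0.22 and 0.23. Leaving out 1 library moved Mfge8 from 0.45 (without WT MONO males) to 2.08 (without WT PFF females) and Timd4 from -1.68 (without CD163KO MONO females) to -0.18 (without WT MONO males), and kept the other 4 between -0.45 and 0.45. Neutrophil marker FPKM was lowest in the macrophage libraries of PFF-injected WT females (22114) and highest in those of PFF-injected CD163KO males (134440), and its part in these values was not tested.

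**Figure D4:**
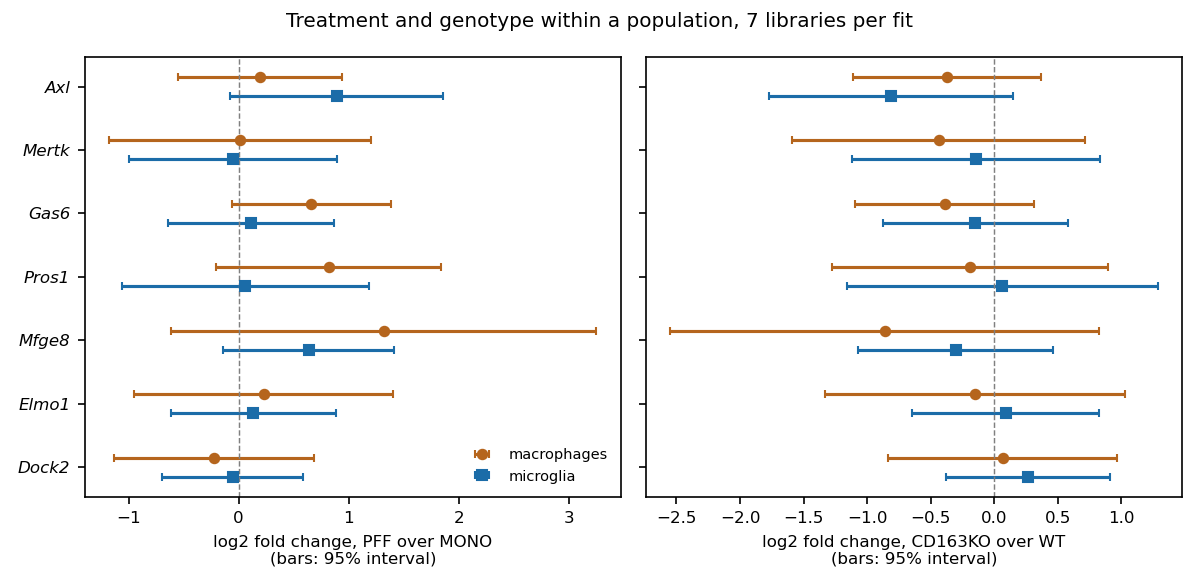
Log2 fold changes of 7 members (without Timd4 and Tyro3, whose intervals are wider) for PFF over MONO (left) and CD163KO over WT (right) within macrophages and within microglia (edgeR, 7 libraries each), with 95% intervals. All intervals shown include 0, including those of Axl in microglia (0.89) and Gas6 in macrophages (0.66) after PFF.

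The effect of CD163 deletion was likewise tested within each population. No member was called in macrophages (0 of 9, against 0.0084% of 11905 genes, 1 gene) or in microglia (0 of 8, against 0% of 12670 genes), and 78 and 166 genes had an unadjusted p under 0.05. In macrophages, log2 fold changes ran from -0.86 ± 0.73 (Mfge8) to 1.13 ± 0.98 (Timd4), with Mertk at -0.44 ± 0.50, Gas6 at -0.39 ± 0.31 and Axl at -0.37 ± 0.32, leaving out Tyro3. Leaving out 1 library moved Mfge8 from -1.40 (without CD163KO PFF males) to -0.15 (without WT MONO females), and Mertk from -0.68 to -0.16 without the same libraries. It moved Axl from -0.52 (without CD163KO PFF males) to -0.16 (without WT PFF females), and Timd4 from 0.37 (without CD163KO PFF females) to 1.76 (without CD163KO PFF males). On the TMM scale Axl, Mertk, Gas6 and Mfge8 were lower in CD163KO in the 3 pairs tested, and the interval of each included 0. By FPKM all 4 were higher in CD163KO in PFF-injected females (Axl 12.1 in WT and 13.2 in CD163KO, Mertk 3.04 and 5.20, Gas6 48.4 and 73.6, Mfge8 8.67 and 11.9). In the fourth pair, with the excluded library, Mertk was again lower in CD163KO, and Axl, Gas6 and Mfge8 were higher by log2 0.55, 1.11 and 2.72. In microglia, Axl was -0.81 ± 0.43 (interval -1.77 to 0.14), higher in CD163KO in 1 of 3 pairs, and leaving out 1 library moved it from -1.49 (without CD163KO PFF males) to -0.39 (without the library labelled female CD163KO MONO). In CPM over total counts, Axl in WT and CD163KO microglia was 51.5 and 16.3 (MONO females), 82.5 and 31.1 (PFF females), and 8.26 and 59.1 (PFF males). All genes had a median log2 fold change of 0.41 with total counts and -0.04 with TMM. Timd4 passed the count minimum in microglia only through the 2 WT female libraries with 44 and 65 counts, which fixes the direction of its differences by genotype and by sex there, so no fold change is read from it.

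The female and male samples were compared as well, with 0% of genes called in either population and 0 members. The members' log2 fold changes of males over females ran from -1.23 ± 0.81 (Mfge8) to 0.11 ± 0.50 (Mertk) in macrophages and from -0.30 ± 0.33 (Gas6) to 0.87 ± 0.57 (Pros1) in microglia, leaving out Tyro3 in macrophages and Timd4 in microglia, which passed the count minimum only through 2 female libraries each, and 151 and 214 genes had an unadjusted p under 0.05. Leaving out 1 library at a time moved Mfge8 in macrophages from -1.92 (without WT PFF females) to -0.34 (without WT MONO males), and Mertk there from -0.14 (without CD163KO PFF males) to 0.38 (without WT MONO females). In microglia it moved Pros1 from 0.34 (without WT PFF females) to 1.56 (without CD163KO PFF males), and Gas6 from -0.69 (without CD163KO PFF males) to -0.07 (without WT MONO males). Without the library labelled female CD163KO MONO, Pros1 was 0.92 and Gas6 -0.39.

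Differences between effects were tested as interaction terms. Whether PFF acted differently in CD163KO and WT was tested within each population, and 0% of genes and 0 members were called (lowest unadjusted p among members 0.416 for Timd4 in macrophages, leaving out Tyro3, and 0.238 for Axl in microglia; 53 and 552 genes with an unadjusted p under 0.05). Whether the PFF effect differed between microglia and macrophages gave 0 members and 0% of genes (121 genes with an unadjusted p under 0.05), with Pros1 the lowest at an unadjusted p of 0.166. Whether the CD163KO effect differed between the populations again gave 0 members and 0% of genes (84 genes with an unadjusted p under 0.05). Timd4 was the only member there with an unadjusted p under 0.05 (0.00863; edgeR's quasi-likelihood adjusted p = 1.0), and DESeq2 called it. Its microglia side rests on the same WT female libraries with 44 and 65 counts, so no fold change is read from it. In counts, Timd4 was 177 and 357 in CD163KO female macrophages and 0 and 4 in the matched microglia, against 194 and 58 in WT female macrophages and 65 and 44 in the matched microglia.

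The transcripts of Mfge8 showed a pattern by treatment in microglia that was noticed after the values were seen and was not tested. Mfge8 (chr7:79133768-79149060) has a long form (NM_008594) and a short form (NM_001045489) that differ by 1 coding exon. In GENCODE vM21 this is exon 4 of 10, at chr7:79143278-79143388 on the minus strand of GRCm38, 111 bases or 37 codons in frame, shown because it is what distinguishes the forms.
Mfge8 exon 4: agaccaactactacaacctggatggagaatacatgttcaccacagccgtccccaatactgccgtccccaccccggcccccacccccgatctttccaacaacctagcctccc
The long form held 0%, 0%, 0% and 3.14% of Mfge8 counts in the 4 MONO microglia libraries, and 42.0% (WT females), 25.65% (WT males), 36.2% (CD163KO females) and 61.3% (CD163KO males) in the 4 PFF libraries. On 374 to 402 Mfge8 counts, the exact 95% binomial intervals (Clopper-Pearson, on rounded counts) of the MONO libraries reached at most 5.47%, and those of the PFF libraries, on 175 to 1033 counts, began at 19.4% or more. In the 3 libraries with a count of 0 the upper limit was 0.923% to 0.982%. These limits cover counting error and not the assignment of reads to transcripts. In the macrophages of females the long form was also higher after PFF, at 3.59% after MONO and 18.7% after PFF in WT and 0% and 53.9% in CD163KO. In the macrophages of males it was not, at 100% and 100% in WT and 100% and 19.5% in CD163KO. Each male pair holds a library that stood apart (PFF-WT and MONO-CD163KO), and the MONO-CD163KO library was excluded by the study. The estimated division between transcripts also varied across the whole library. Of the genes with several transcripts and at least 100 counts, 32.8% to 49.9% had at least 99% of their counts on 1 transcript in MONO microglia and 20.8% to 32.5% in PFF microglia. In macrophages this was 68.6% in PFF-WT males and 56.7% in MONO-CD163KO males, and at most 39.4% in the other libraries. The part of this in the Mfge8 shares was not tested. The Axl transcript NM_001190975 likewise held 74.2% to 100% of Axl counts in MONO microglia and 0% to 61.0% in PFF microglia, while Mertk, Gas6, Pros1 and Timd4 are listed with a single transcript.

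**Figure D5:**
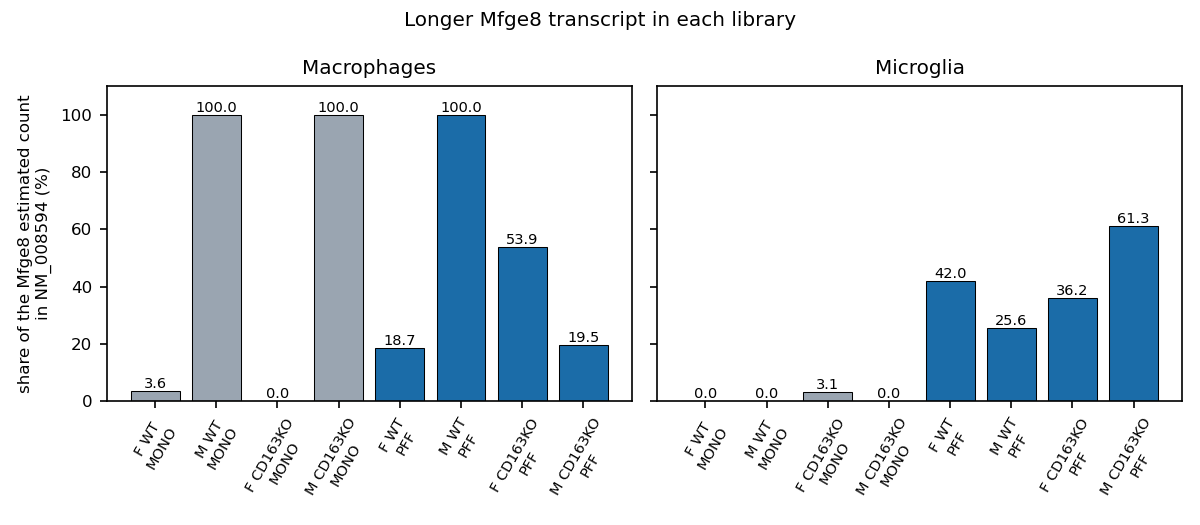
Share of Mfge8 counts on the long transcript NM_008594 in each of the 16 libraries by population and treatment, each bar 1 library (grey MONO, blue PFF). The 4 MONO microglia libraries lie at 0% to 3.14% and the 4 PFF microglia libraries at 25.65% to 61.3%, while macrophage libraries of both treatments run up to 100%.

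The genes whose levels followed those of the receptors most closely within populations were taken from 5717 genes, over 14 libraries centred on their population mean. For Axl these were Ptk2b (Pearson's r = 0.90), Igfbp4 (0.85) and Nkiras2 (0.85). For Mertk they were Ptpn12 (0.78), Ccdc82 (0.78) and Mrfap1 (0.77). Among the members, Gas6 (0.48) and Mfge8 (0.42) were nearest to Axl and Pros1 (0.49) to Mertk, and Axl and Mertk had r = -0.21 with each other. The libraries share the same scaling factors and genes are not independent, so these values are a description without a test.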

How the data were processed

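FACS-sorted microglia and brain macrophages were sequenced with SMART-seq2 by the authors, and 16 tables were deposited, 1 per population, sex, genotype and treatment. The submitters' processing notes name Bowtie2, RSEM, DESeq2 and mm10, with versions not given in the sources used here. The deposited tables hold, per RefSeq transcript, an estimated count (RSEM) and an FPKM value, which the authors scaled by transcript length and mapped reads. Reads without molecular identifiers are not independent molecules, so intervals and floors cover counting error only. The study describes 2 batches of mice, removal of outlying samples and a batch correction, but no label ties a table to a batch, so that batch and group cannot be told apart. The replicate numbers are all 1, and p-values measure only the spread between these libraries, which may be technical.

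Transcripts were mapped to symbols with the RefSeq gene table (27632 of 27787; at most 0.128% of counts unnamed in a library), and estimated counts and FPKM were summed per symbol. Rounded sums were tested with edgeR 4.0.16 (quasi-likelihood, TMM factors, R 4.3.3) on genes with at least 10 counts in at least 2 libraries, with Benjamini-Hochberg adjustment over all genes tested. Populations were compared with a term for each combination of sex, genotype and treatment, and conditions within a population with sex, genotype and treatment as terms. Calls required an adjusted p of at most 0.05 and an absolute log2 fold change of at least 1. Alternatives were RLE and total-count scaling, no filter, DESeq2 1.42.0, limma 3.58.1 on log2(FPKM + 1) and log2(FPKM + 0.1) for genes of at least 1 FPKM in 2 libraries, adding the excluded male CD163KO MONO libraries, no block, no fold limit and leaving out each library. The scripts were tested on simulated data. All 9 members are named. In the 6 pathway lists, the called genes with the 3 lowest adjusted p in each direction are named, and for Axl and Mertk the 3 genes most correlated with each. Members and lists were chosen with earlier results of these data known. Of 11 marker lists, 6 further ones were measured in FPKM summed over the list: monocytes at 301 to 2991 in macrophages and 7.54 to 84.3 in microglia, NK and T cells at 46.5 to 236 and 0.12 to 5.65, dendritic cells at 610 to 1670 and 280 to 777, choroid plexus at 84.9 to 12617 and 263 to 2523, astrocytes at 12.0 to 71.4 and 33.6 to 126, and oligodendrocytes at 22.2 to 172 and 19.4 to 188. Endothelium and neurons stayed at or below 108 and 7.45. The dendritic cell list shares Siglech with the homeostatic microglia list, so its values in microglia do not measure dendritic cells alone. Intervals of shares used scipy 1.17.1. Promoters and positions are RefSeq's on GRCm38.p6, the assembly that mm10 names, and the Mfge8 exon is GENCODE vM21's.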

Additional observations from a re-analysis of the deposited data

Results flagged for a closer look

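Of 18 groups of 8 libraries (9 members in 2 populations) whose FPKM was examined for a single library far from the others, 2 held one. By chance the limit marks about 1 in 20 groups of normally distributed values. FPKM was not shown to be so distributed, so that rate may not hold here. Timd4 reached 3.52 FPKM in the microglia of MONO-injected WT females, with 1.29 FPKM in the next library, and the gap was 0.634 of the whole range (limit 0.526 for 8 libraries). Dock2 reached 43.64 FPKM in the macrophages of MONO-injected CD163KO males, with 12.85 FPKM in the next library and a gap of 0.766 of the range. That library is 1 of the 2 the study excluded and did not enter the tests.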

How the results depend on the processing

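Between the populations, the calls of Mertk, Elmo1, Pros1 and Timd4 held under every alternative run with a test for them, and all 6 calls held in each of the 14 fits that left out 1 library, with log2 fold changes of 2.99 to 3.27 (Mertk), -2.79 to -2.50 (Axl) and -1.65 to -1.43 (Gas6). The number of genes called was 2313, and 6320 with total counts, 4261 with DESeq2, 5831 and 6404 with limma on log2(FPKM + 1) and log2(FPKM + 0.1), and 1706 to 4050 when 1 library was left out (4050 without the macrophages and 4043 without the microglia of PFF-injected WT males). With total counts Gas6 turned from -1.56 to 0.027. Without the block for the matched combination (no pairing of the populations) 2676 genes were called, and no member's call changed. The cause of these shifts was not tested.

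Counts of calls within populations depended on the method, and no member was called there under any alternative run. For PFF vs. MONO in macrophages, total counts gave 1 gene, DESeq2 8, and limma 1 and 4; in microglia total counts gave 3, no filter 11 and DESeq2 25. For CD163KO vs. WT in macrophages, where 1 gene was called, total counts and DESeq2 gave 2 each and limma 4 and 5; in microglia no filter gave 19 and DESeq2 3. For males vs. females in macrophages, total counts gave 6, no filter 1, DESeq2 17, limma 6 and 8, and adding the excluded library 1; in microglia total counts gave 5, no filter 6, DESeq2 21 and limma 3 each. For the difference of the PFF effect between genotypes, total counts gave 6, DESeq2 10 and limma 3 and 5 in macrophages, and total counts 1, no filter 105, DESeq2 27 and limma 2 and 1 in microglia. For the difference of the PFF effect between populations DESeq2 gave 43, and for that of the CD163KO effect total counts gave 3 and DESeq2 48, of which 1 was a member (Timd4). Leaving out 1 library gave 0 to 4 and 0 to 1 genes for PFF (macrophages and microglia), 0 to 5 and 0 for CD163KO, 0 to 7 and 0 to 3 for sex, 2 to 3441 and 0 to 198 for the genotype by treatment term, 0 to 5 for PFF by population and 0 to 1 for CD163KO by population. The value of 3441 came without the macrophages and 198 without the microglia of PFF-injected WT females, in fits of 1 residual degree of freedom. Of 422 uncalled member values under other alternatives 72 had the opposite sign, and 47 of 385 when a library was left out. With 1 library per combination, within-population intervals of the tested members spanned at least 0.64 to either side on the log2 scale, which limits what was detectable.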
